A study of Mus musculus with 4 samples.

Results

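Transcript levels of 9 enzymes of serine synthesis and folate-bound one-carbon metabolism were examined in the 3T3-L1 line, mouse preadipocytes of fibroblast type. The genes were Phgdh, Psat1, Psph, Shmt1, Shmt2, Mthfd1, Mthfd1l, Mthfd2 and Mtr, taken by gene symbol from a table of 16709 symbols, and all 9 were listed. Cells in one group had received 25 µM Nutlin-3a, dissolved in DMSO, for 24 h, and cells in the other had received an equivalent amount of DMSO alone in parallel. Nutlin-3a blocks the binding of MDM2 to p53, so that p53 is no longer marked for degradation. Each group had 2 biological replicates, and no genotype change or differentiation step is given in the labels for either group. The table held FPKM (fragments divided by transcript length and by the library's mapped fragments), with a single value per group for each transcript and no values of single libraries. No replicate error is therefore known for any value, no p-value was computed, and higher and lower describe the authors' group values only.

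The serine pathway draws 3-phosphoglycerate out of glycolysis. PHGDH oxidises it, PSAT1 transfers an amino group to the product, and PSPH removes the phosphate to leave serine. Serine hydroxymethyltransferases, SHMT1 in the cytosol and SHMT2 in mitochondria, then split serine into glycine and a carbon unit carried on tetrahydrofolate. In mitochondria MTHFD2 oxidises that unit and MTHFD1L releases it as formate, and in the cytosol the single protein MTHFD1 carries the corresponding activities and takes formate up again for purine and thymidylate synthesis. MTR, methionine synthase, passes a methyl group from folate to homocysteine. In proliferating cells most carbon units are known to come from the mitochondrial branch, and several of these genes are known targets of the stress-response factor ATF4.

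The 3 serine synthesis genes and the 3 mitochondrial folate genes were all listed lower in Nutlin-3a than in DMSO, while the 2 cytosolic folate genes and Mtr were all listed higher. Only Mthfd1l passed a 2-fold limit, set on the log2(FPKM + 1) scale, and it lay on the lower side. Psph (just inside), Shmt2 and Mtr lay closest to the limit among the others. On that scale the 9 log2 ratios of Nutlin-3a over DMSO had a median of -0.32, with 6 below 0. Over all 10331 genes with a mean of at least 1 FPKM and a value above 0 in both groups, the median was 0.07 and 45.2% of ratios were below 0. Of these genes 6.14% were at least 2-fold lower and 6.62% at least 2-fold higher, against 1 and 0 of the 9 members. All 9 members passed that filter. With 9 genes, such counts are no result about the members as a set. In RNA from whole cultures, fewer cells expressing a gene and less RNA per cell cannot be told apart.

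**Figure D1:**
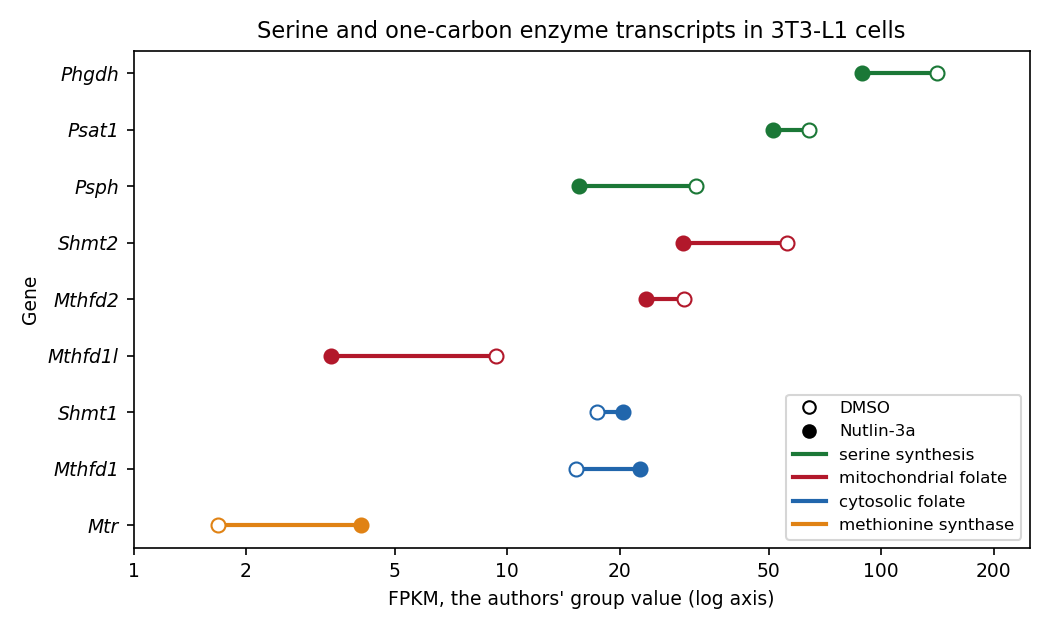
FPKM of each gene in DMSO (open circles) and Nutlin-3a (filled circles), 1 group value each, on a log axis; colours give the role of the enzyme. Filled circles lie left of open ones for the 6 serine synthesis and mitochondrial folate genes and right of them for Shmt1, Mthfd1 and Mtr.

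Mthfd1l and Mthfd1, and Shmt2 and Shmt1, are pairs that do related work in mitochondria and cytosol. The genes of each pair lay on opposite sides of 0, and their promoters were picked for display on that ground. Mthfd2, also set against Mthfd1 below, is not shown. The sequences are the 250 bases before the RefSeq start site (GRCm38.p6), 5′ to 3′ on the gene's strand. Capitals mark matches on either strand to GGGCGG (the GC box) and CCAAT, and in Mthfd1 also to the p53 half-site.
Mthfd1l: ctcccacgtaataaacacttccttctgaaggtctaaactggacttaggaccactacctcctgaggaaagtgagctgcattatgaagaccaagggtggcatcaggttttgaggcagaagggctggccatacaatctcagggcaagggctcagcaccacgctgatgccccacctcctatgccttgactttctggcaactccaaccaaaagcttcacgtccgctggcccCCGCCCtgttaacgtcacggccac
Mthfd1: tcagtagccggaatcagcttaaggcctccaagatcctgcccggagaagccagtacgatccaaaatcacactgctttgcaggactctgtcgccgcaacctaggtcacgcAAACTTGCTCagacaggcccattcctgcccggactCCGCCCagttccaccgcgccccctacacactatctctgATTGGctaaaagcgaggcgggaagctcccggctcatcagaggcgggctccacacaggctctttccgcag
Shmt2: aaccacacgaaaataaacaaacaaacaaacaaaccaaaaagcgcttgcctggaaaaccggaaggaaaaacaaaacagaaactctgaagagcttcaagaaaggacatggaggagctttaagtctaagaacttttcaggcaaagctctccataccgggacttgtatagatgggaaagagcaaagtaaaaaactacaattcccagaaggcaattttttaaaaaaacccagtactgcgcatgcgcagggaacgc
Shmt1: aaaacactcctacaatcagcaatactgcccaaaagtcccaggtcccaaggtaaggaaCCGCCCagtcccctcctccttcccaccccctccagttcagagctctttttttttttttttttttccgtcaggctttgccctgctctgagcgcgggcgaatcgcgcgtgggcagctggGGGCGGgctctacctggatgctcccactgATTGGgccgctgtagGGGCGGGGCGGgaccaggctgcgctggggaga

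These stretches lie at chr10:3972825-3973074 on the plus strand for Mthfd1l, chr12:76254982-76255231 on the plus strand for Mthfd1, chr10:127522445-127522694 on the minus strand for Shmt2 and chr11:60811266-60811515 on the minus strand for Shmt1. For all 9 genes the start site in the authors' gene model equalled a RefSeq start site. GC content was 54.4% for Mthfd1l, 59.2% for Mthfd1, 40.8% for Shmt2 and 60% for Shmt1, with a median of 52.4% over the same stretch of all 32851 RefSeq promoter windows. The Shmt2 stretch held neither a GC box nor CCAAT, whereas the Shmt1 stretch held 4 GC boxes, 2 of them overlapping by 1 base, and 1 CCAAT. In windows of 300 bases, which add 50 bases after the start, GGGCGG was found in 35.7% and CCAAT in 37.4% of all promoters. Among the members GGGCGG was found in Mthfd1, Mthfd1l, Mtr, Psat1, Psph and Shmt1. CCAAT was found in Mthfd1, Mthfd2, Mtr, Phgdh, Psat1, Psph and Shmt1. Each motif thus occurred in members listed lower and in members listed higher, and Psph, listed lower, held both. These 2 motifs, and TGATGNAA below, were chosen after the data were seen. TGATGCAA, a form of the element that C/EBP and ATF4 bind, matched in none of the 10 member windows (Psat1 has 2) and in 0.895% of all windows. The looser TGATGNAA also matched in no member window, against 3.97% of all. CACGTG, the E-box of Myc, likewise matched in no member window, against 7.15% of all. A single p53 half-site, a palindromic pattern of 10 bases, matched in 8.36% of all windows and among the members in Mthfd1 alone, at AAACTTGCTC from 142 to 133 bases before the start. A match is a run of letters and was not tested as a binding site.

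Phgdh, which encodes the first enzyme of serine synthesis, was the most abundant member. Its level was 89.2 FPKM with Nutlin-3a against 141 FPKM with DMSO, 1.58-fold lower, with a log2 ratio of -0.65. Its rank by FPKM among all symbols was 987 in Nutlin-3a and 684 in DMSO, and it made up 34.3% and 38.4% of the members' summed FPKM. RefSeq lists a Phgdh pseudogene on another chromosome, and how reads common to both were assigned is not given in the sources used here. Psat1, the aminotransferase of the second step, had 51.5 against 64.1 FPKM, a log2 ratio of -0.31. Psph, the phosphatase that releases serine, had 15.5 against 32.0 FPKM. That is 2.06-fold lower as a plain ratio, and its log2 ratio of -0.99 lay just inside the limit. The last enzyme of the route therefore had the lowest ratio of the 3, and the middle one the ratio nearest to 0. Within a group, Phgdh was 4.40 times the level of Psph in DMSO and 5.74 times in Nutlin-3a. A constant factor between groups cannot alter such a ratio, but a correction that moves genes unequally can. Together the 3 genes came to 156 against 237 FPKM.

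Of all 10331 ratios, 6.21% were as low as or lower than that of Psph, 12.9% for Phgdh and 26.1% for Psat1. Psph lies at chr5:129765558-129787253, Phgdh at chr3:98313171-98339969 and Psat1 at chr19:15905123-15925059, all on the minus strand (mm10, whole gene models as listed). The first 256 bases of the Psph model overlap an annotated entry of Cct6a, a chaperonin gene, on the opposite strand. That entry is typed as a processed transcript. The symbol Cct6a summed to 102 against 83.1 FPKM, and the part of that from the overlapping entry is not known. Whether the counting used strand is not given in the sources used here, and a part of Cct6a reads in the Psph value was not tested.

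Mthfd1l, whose product makes formate in mitochondria, had the lowest ratio of the members. Its level was 3.37 against 9.35 FPKM (Nutlin-3a against DMSO), 2.78-fold lower, with a log2 ratio of -1.24, and 3.43% of all ratios were as low or lower. Its 3 listed transcripts were each lower in Nutlin-3a. The main one had 2.33 against 7.40 FPKM, the next 1.02 against 1.89 FPKM, and the last was near 0 in both groups (0.0238 against 0.0637 FPKM). The drop was therefore steepest in the transcript that carried most of the signal. Shmt2, the mitochondrial serine hydroxymethyltransferase, had 29.4 against 56.1 FPKM, 1.91-fold lower, with a log2 ratio of -0.91. Both of its transcripts had the lower value in Nutlin-3a, 15.7 against 31.7 FPKM and 13.7 against 24.4 FPKM. Mthfd2, the mitochondrial dehydrogenase and cyclohydrolase, had 23.6 against 29.6 FPKM, a log2 ratio of -0.32, close to that of Psat1.

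The Mthfd1l gene model lies at chr10:3973075-4167081 on the plus strand, Shmt2 at chr10:127514939-127522444 and Mthfd2 at chr6:83305704-83317604, the latter 2 on the minus strand. The listed Shmt2 model reaches past the annotated gene and covers all 2188 bases of Ndufa4l2 on the opposite strand. Ndufa4l2 had its own entry, with 0.364 against 0.237 FPKM.

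In the cytosolic branch both members had the higher value in Nutlin-3a, though neither came near the limit. Mthfd1, the trifunctional cytosolic enzyme, had 22.7 against 15.3 FPKM, 1.48-fold higher, with a log2 ratio of 0.54, and it lay at percentile 80.1 of all ratios. Shmt1, the cytosolic hydroxymethyltransferase, had 20.4 against 17.3 FPKM, a log2 ratio of 0.22, between the quartiles of all genes, -0.33 and 0.44. Mthfd1 lies at chr12:76255232-76319820 on the plus strand and Shmt1 at chr11:60788897-60811265 on the minus strand. An annotated antisense gene, Gm34868, overlaps Mthfd1 over 19090 bases and had no entry under that symbol.

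Mtr, the gene of methionine synthase, was the least abundant member in DMSO. Its level was 4.06 against 1.68 FPKM, 2.42-fold higher as a plain ratio, while its log2 ratio of 0.92 lay inside the limit because the pseudocount of 1 weighs on such a low level. Its single transcript (chr13:12186540-12258113, minus strand) carried class code j, which marks a model that shares a splice junction with an annotated transcript without matching it. The level therefore refers to that model. Mtrr, the reductase that reactivates methionine synthase, was also weak and had 1.60 against 0.718 FPKM, a log2 ratio of 0.60. Mtrr was named outside the naming rule given below.

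**Figure D2:**
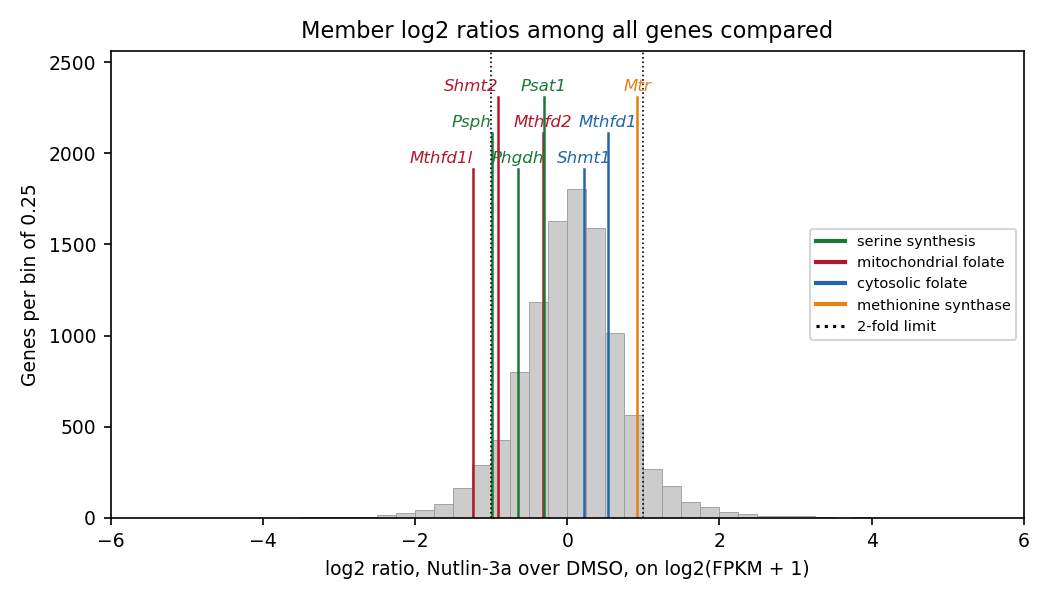
Histogram of the log2 ratios of all 10331 genes compared, in bins of 0.25, with the members as coloured lines and the 2-fold limit dotted. Mthfd1l, at -1.24, is the member beyond the limit, Psph lies just inside it at -0.99, and Shmt1, at 0.22, lies near the peak.

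The branches were also set against each other within a group, after their members had been seen on opposite sides of 0, so that the direction of this contrast is no separate result. The 3 mitochondrial genes summed to 56.4 against 95.1 FPKM (Nutlin-3a against DMSO), the 2 cytosolic genes to 43.1 against 32.6 FPKM. The mitochondrial sum was thus 2.91 times the cytosolic sum in DMSO and 1.31 times in Nutlin-3a. These sums cover unequal numbers of genes, and Shmt2 alone had 56.1 FPKM in DMSO, so they do not give the relative level of the branches. Shmt2 was 3.23 times the level of Shmt1 in DMSO and 1.44 times in Nutlin-3a. For Mthfd1l over Mthfd1 the ratio was 0.612 in DMSO and 0.149 in Nutlin-3a. For Mthfd2 over Mthfd1 it was 1.94 in DMSO and 1.04 in Nutlin-3a. Such ratios show unequal change and not which gene of a pair changed. They were not corrected for GC content of the transcript, which is 57.4% for Shmt2 and 49.2% for Shmt1. Other mitochondrial genes of the pathway did not all go with the 3 members. Mthfd2l, a relative of Mthfd2, had 3.87 against 3.29 FPKM, and Slc25a32, the mitochondrial folate carrier gene, had 5.98 against 3.19 FPKM, log2 ratios of 0.18 and 0.74. Aldh1l2, the mitochondrial formyltetrahydrofolate dehydrogenase gene, had 2.41 against 2.93 FPKM, a log2 ratio of -0.21. These 3 were chosen after their values were seen.

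The order of the members by FPKM was the same at the top in both groups, with Phgdh first, then Psat1 and Shmt2. In DMSO the order continued with Psph, Mthfd2, Shmt1, Mthfd1, Mthfd1l and Mtr. In Nutlin-3a it continued with Mthfd2, Mthfd1, Shmt1, Psph, Mtr and Mthfd1l. Psph thus stood ahead of both cytosolic folate genes in DMSO and behind them in Nutlin-3a. With no replicate values, it cannot be said which neighbours in either order differ beyond their spread. Over all 9 genes the sum was 259.8 against 366 FPKM.

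Base composition moved with the ratios across all genes. In 8 classes by GC content of the transcript, the median log2 ratio ran from 0.25 in the class of lowest GC to -0.19 in that of highest GC, over 9935 genes. Phgdh and Shmt2 have 57.2% and 57.4% GC, in a class with a median of -0.11, and Psph has 53.7%, in a class with a median of -0.04. Mtr has 46.0% GC, in a class with a median of 0.17. After a correction for GC content the log2 ratios were -0.47 for Phgdh, -0.71 for Shmt2, -0.88 for Psph and 0.79 for Mtr, and that of Mthfd1l was -1.20. The other 4 members moved by less than 0.1. All 9 kept their sign under it.

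Genes of neighbouring pathways were taken as 7 lists, which held 70 genes that passed the filter. Of these, 7 were at least 2-fold higher and 7 at least 2-fold lower, 10% each, with a median log2 ratio of 0.04. Among the 7 higher, Aldh1l1, Gnmt, Pgam2 and Sesn2 were below 1 FPKM in DMSO. They passed the filter only through their Nutlin-3a value. With a mean of at least 5 FPKM, 2 list genes were higher and 6 lower. Over all genes compared the shares were 6.62% and 6.14% and the median 0.07, and the counts in single lists below are too small to be set apart from these shares.

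Among 12 genes of the folate cycle and folate transport that were compared, 1 was higher and 1 lower, with a median of 0.08. Slc19a1, the reduced folate carrier gene, was lower (5.69 against 13.7 FPKM, log2 ratio -1.13). Aldh1l1, the cytosolic formyltetrahydrofolate dehydrogenase gene, was higher from a DMSO value near 0 (2.19 against 0.0194 FPKM, log2 ratio 1.64). Fpgs, which adds the glutamate tail that keeps folate in the cell, had 10.5 against 21.7 FPKM, a log2 ratio of -0.98 just inside the limit. Ggh, which removes that tail, had 14.7 against 12.7 FPKM. The carrier and the tailing enzyme thus both had values near the 2-fold limit on the lower side.

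Genes that move or use serine went both ways. Of 14 compared, 3 were higher and 2 lower, with a median log2 ratio of 0.35. The lower ones were Slc1a5, a transporter of glutamine and other neutral amino acids including serine (21.7 against 47.7 FPKM, log2 ratio -1.10), and Sfxn3, a sideroflexin gene of the family that carries serine into mitochondria (4.15 against 12.4 FPKM, -1.38). Serinc3, of a membrane protein family named for serine incorporation (76.0 against 34.7 FPKM, 1.11), Sdsl, a serine dehydratase-like gene (7.06 against 1.36 FPKM, 1.77), and Sptlc1, a subunit of the enzyme that joins serine to palmitate for sphingolipids (15.0 against 6.95 FPKM, 1.005), were higher. Sptlc2, the partner subunit, had 19.8 against 10.1 FPKM, a log2 ratio of 0.90. Both subunit genes of that serine-using enzyme thus lay close to the limit. After the GC correction Sptlc1 (0.92), Serinc3 (0.94) and Slc1a5 (-0.89) lay inside it. Serinc1 had 38.1 against 27.3 FPKM.

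In the methionine cycle and transsulfuration list, 1 of 8 genes compared was higher and none was lower, with a median of 0.50. The higher one was Gnmt, glycine N-methyltransferase (5.30 against 0.795 FPKM, log2 ratio 1.81). Cth, chosen after its value was seen, lay just inside the limit (15.3 against 7.20 FPKM, 0.99). The count higher was 2 with upper-quartile scaling and 3 at a pseudocount of 0.1 FPKM. Mat2a, which makes S-adenosylmethionine, had 85.7 against 63.6 FPKM, Mat2b, its regulatory subunit, had 27.3 against 31.1 FPKM, and Ahcyl1, a relative of adenosylhomocysteinase, had 20.6 against 18.4 FPKM. Of the 4 glycine cleavage genes 2 were compared, and both lay inside the limit on the higher side. Gcsh, the carrier protein, had 56.9 against 39.4 FPKM, and Dld, the dehydrogenase it shares with other complexes, had 54.5 against 32.4 FPKM. Gldc and Amt, the subunits specific to glycine cleavage, were under the minimum mean, with 0.262 against 0.240 FPKM for Gldc.

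No gene of purine synthesis, the main user of formyl units, passed the limit. The 12 genes had a median log2 ratio of 0.15. Impdh2, of guanine nucleotide synthesis, had 118 against 141 FPKM, Paics 48.4 against 68.7 FPKM and Atic, a formyl-using enzyme, 26.2 against 22.3 FPKM.

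Glycolytic genes around the branch point of the serine pathway had 6 of 8 ratios below 0, against 45.2% of all genes compared. With 8 genes, such a count is no result about the list as a set. The median log2 ratio was -0.54, or -0.36 after the GC correction. Pgk1, which makes 3-phosphoglycerate, had a log2 ratio of -0.77, Gapdh, the step before, -0.80 and Pkm, pyruvate kinase, -0.59. Eno3, the muscle-type enolase gene, was lower (7.31 against 39.2 FPKM, -2.28), and Pgam2, the muscle-type phosphoglycerate mutase gene, was higher from a low level (4.23 against 0.622 FPKM, 1.69).

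Of 14 compared genes of ATF4 and the amino-acid response, 3 were lower and 1 was higher. Below 0 were 10 of the 14 ratios, against 45.2% of all genes compared. With 14 genes, such a count is no result about the list as a set. The median log2 ratio was -0.19, or -0.08 after the GC correction. Atf4 itself had 178 against 328 FPKM, a log2 ratio of -0.87 inside the limit. The lower ones were Nupr1 (-3.47), Trib3 (-1.86) and Chac1 (-1.27), a chromatin regulator, a pseudokinase and a glutathione-degrading enzyme. Sesn2, a sestrin gene that is also a p53 target, was higher (5.40 against 0.392 FPKM, 2.20). Cebpb, an adipogenic C/EBP factor gene, had a log2 ratio of -0.15, Ddit3, the CHOP gene, -0.24 and Eif4ebp1, a translation repressor gene, -0.65. Asns, asparagine synthetase, an ATF4 target like Phgdh and Psat1, had 129.4 against 128.6 FPKM, a log2 ratio of 0.01. Slc3a2 went the other way, with 134 against 85.4 FPKM, a log2 ratio of 0.65. Asns and Slc3a2 were chosen after their values were seen, and Atf4 too was named outside the naming rule given below.

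**Figure D3:**
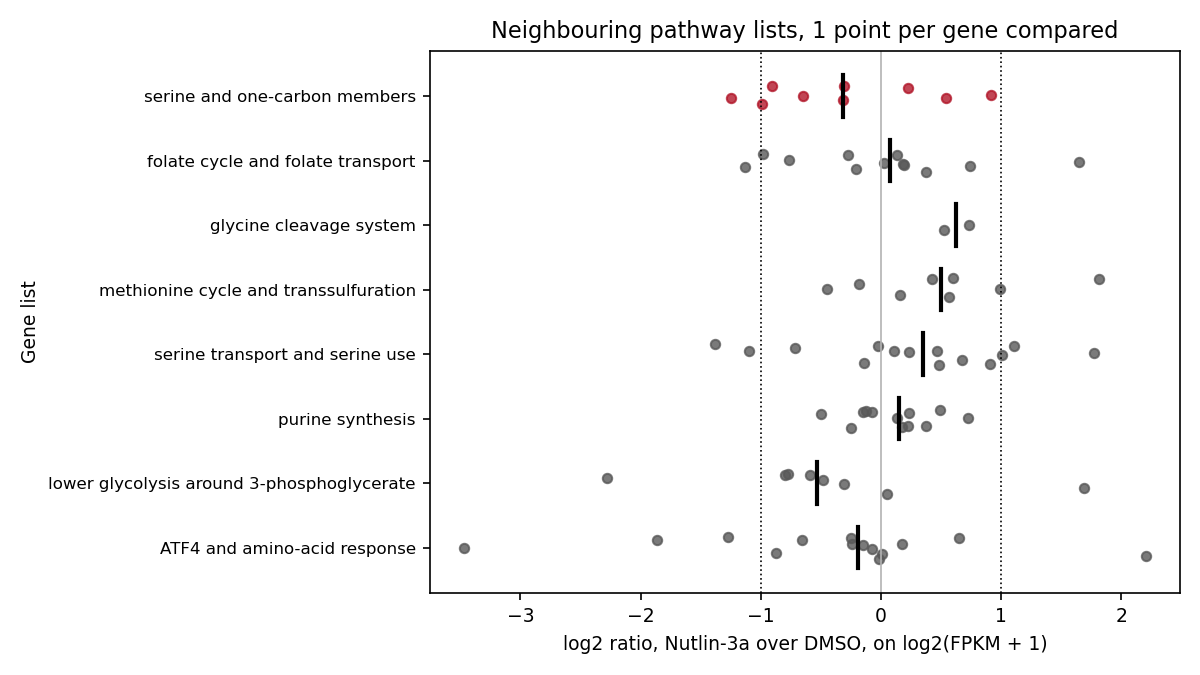
Log2 ratios of the members (red) and of each list (grey), 1 point per gene compared, with the list median as a black bar and the 2-fold limit dotted; vertical scatter within a row carries no meaning. The lower glycolysis list has the lowest median, -0.54, and the glycine cleavage list, with 2 genes, the highest, 0.63.

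The labels were checked against p53 targets and cell markers. Cdkn1a, Ccng1 and Ppm1d were 10.98-fold, 8.96-fold and 4.31-fold higher in Nutlin-3a. All 6 preadipocyte and fibroblast markers were at 9.14 FPKM or above in both groups, but 5 of the 6 were listed lower in Nutlin-3a. Of all genes compared, 45.2% were lower, and with 6 markers the count is no result about them as a set. The 6 serine synthesis and mitochondrial folate genes were also listed lower. The markers' summed level was 1937 against 4010 FPKM, most of it Vim, an intermediate filament gene (1181 against 3169 FPKM). Col1a1, a collagen gene, had 63.9 against 193 FPKM, Pdgfra 9.14 against 30.0 FPKM, Thy1 47.9 against 88.6 FPKM and Pparg 11.3 against 16.4 FPKM. Dlk1 was the one listed higher, at 623 against 513 FPKM. The part of these differences in the members' values was not tested. The 4 mature adipocyte markers were at 0.840 FPKM or below, and the listed ones of endothelium, epithelium and liver at 1.57 FPKM or below. The macrophage marker Cd68 had 6.52 against 2.91 FPKM, with Ptprc at 0.0618 against 0 FPKM. The muscle marker Des had 4.15 against 4.90 FPKM, with Myod1 at 0.0430 against 0 FPKM. FPKM summed to 967341 in Nutlin-3a and 980491 in DMSO, and the number of fragments per library is unknown. Values of 0 were uneven, with 3871 transcripts at 0 in DMSO and 1215 in Nutlin-3a. Low DMSO values, such as those of Aldh1l1, Gnmt, Sesn2, Pgam2, Mtr and Mtrr, are therefore uncertain. So are those of markers at 0 in DMSO.

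**Figure D4:**
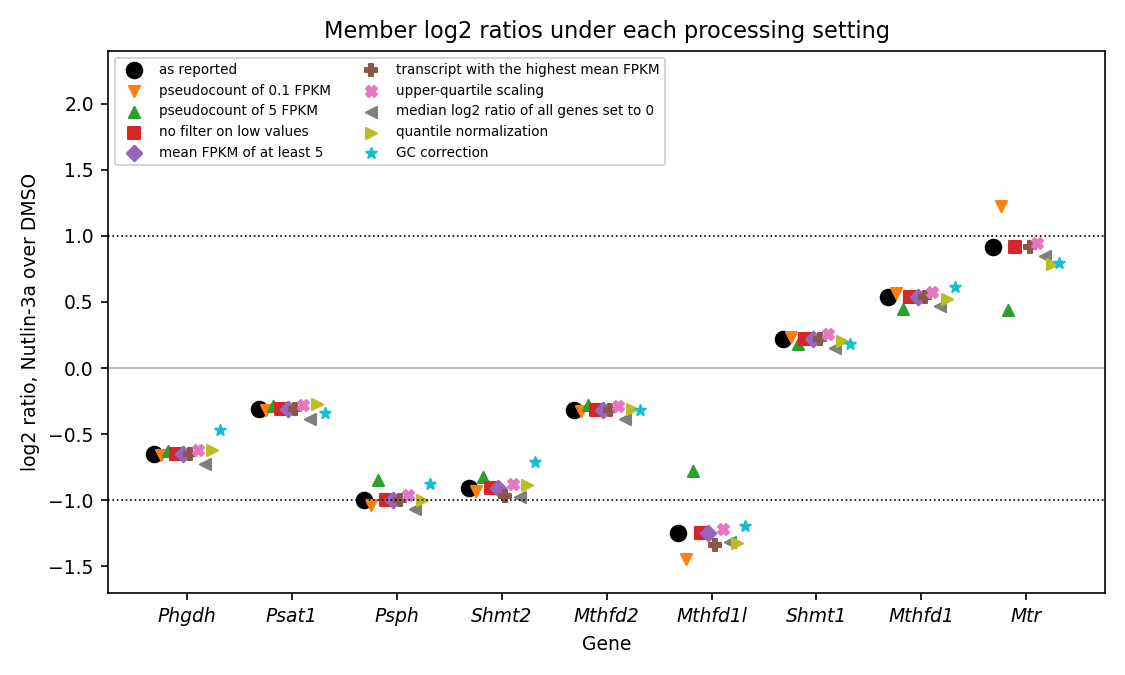
Log2 ratios of the members as reported (black circles) and under 9 alternative settings, 1 symbol each, with the 2-fold limit dotted. Every gene stays on its side of 0, but filters cannot move a ratio and a pseudocount cannot change its sign. Setting the median to 0 moves every ratio by only 0.07, too little to change a member's sign. Mtr was not compared with a mean of at least 5 FPKM, and the pseudocount moves Mthfd1l and Mtr most.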

How the data were processed

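RNA was extracted with TRIzol and sequenced as Illumina libraries, per the labels' protocols. Per the submitters' processing notes, TopHat2 2.0.11 and build mm10 were used. The sources used here do not state the quantifier, the use of strand or how replicates were combined. The deposited table gave FPKM per transcript and group (columns headed NUT and DSM, the latter read as DMSO). A further pair of deposited columns held log2 of those FPKM and was not used.

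Transcript FPKM was summed per symbol, and log2 ratios were taken after adding a pseudocount of 1. A minimum mean of 1 FPKM and a 2-fold limit took the place of a test, since a limma fit needs values per library. The calculation was tested on simulated data with planted ratios, which checks the computation and not the error of the values reported here. GC content came from GENCODE M21 and promoters from RefSeq, which held all 9 members. Lines with tabs only (4294) were left out. Python 3.11.15, numpy 2.4.6 and pandas 2.3.3 were used.

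The members and gene lists were chosen with earlier results of these data known. Named were all members, the p53 targets Cdkn1a, Ccng1 and Ppm1d, and in each list the genes past the limit and up to 3 others of high mean FPKM. Protein sequences were not analysed here.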

Additional observations from a re-analysis of the deposited data

How the results depend on the processing

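Of the 10 alternatives, 7 can change a member's log2 ratio, and all 9 members kept their sign under these 7. A change of pseudocount cannot change a sign, however. Nor could the choice of transcript, since every listed transcript of Shmt2 and Mthfd1l, the only members with more than 1, was lower in Nutlin-3a. Setting the median to 0 moves every ratio by the all-gene median of 0.07. No member lay that close to 0, Shmt1 being nearest at 0.22. Upper-quartile scaling applies a constant factor to each group and moved Shmt1 only to 0.26. Quantile normalization and the GC correction move genes unequally, so only there could a sign have changed. The other 3 alternatives (both filters and the 1.5-fold limit) leave each ratio as it was, and Mtr was left out with a mean of at least 5 FPKM. Mthfd1l passed the 2-fold limit in all but 1 of the 7, with -0.78 at a pseudocount of 5 FPKM. At a pseudocount of 0.1 FPKM, Mtr (1.23) and Psph (-1.03) passed too, giving 1 member higher and 2 lower. There were also 2 lower with the median log2 ratio of all genes set to 0 and after quantile normalization, where Psph was at -1.07 and -1.002. With a 1.5-fold limit 1 member was higher and 4 were lower, of 1839 and 1566 genes in all. At a pseudocount of 5 FPKM no member passed (0 lower), with 249 genes higher and 291 lower in all; of the list genes 1 was higher and 3 lower, and the methionine median was 0.26. With a mean of at least 5 FPKM, 391 genes and 2 list genes were higher, the folate median was -0.77, opposite in sign to that reported, and the methionine median 0.29. Without a filter the glycine cleavage median was 0.27, since 2 more genes entered. With a 1.5-fold limit 15 list genes were higher and 15 lower. Sptlc1 also lay inside the limit with the median of all genes set to 0 (0.93) and after quantile normalization (0.96). A shift of under 0.2 in a median was counted as no change.

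No paired analysis was possible because the table holds 1 value per group, and leaving out a replicate was not run for the same reason. Depth is unknown, so the precision of low values such as those of Mtr and Mthfd1l is unknown.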
